A study of Drosophila melanogaster with 3 samples.

Results

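The genes described here are 38 Polycomb group and trithorax group genes of *Drosophila melanogaster*, taken from a list of symbols in the Ensembl annotation of the Release 6 assembly, out of 13945 protein-coding genes on the chromosome arms. All 38 were found, with *calypso* annotated as *caly*. They comprise 20 Polycomb group genes and 18 genes of the trithorax group and of chromatin remodelers. The values are peaks of chromatin immunoprecipitation followed by sequencing (ChIP-seq) of Empty spiracles (Ems), a homeodomain transcription factor of the embryonic head, brain, tracheae and posterior spiracles.

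There was 1 group of 3 biological replicates and no control group. Each was a pool of whole male and female embryos aged 0 to 24 hours from strain 16T-GFP, a line with a transgene for *ems* fused at its C-terminal end to eGFP. The experiment description names an anti-GFP antibody for the precipitation, while the antibody field of the labels reads ems. A whole embryo of this age range mixes many tissues and stages, and the cells in which a peak arose cannot be told apart. The labels do not give the promoter or the copy number of the transgene.

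The optimal list, the reproducible peaks that the authors derived from the 3 replicates together, held 3866 peaks on the dm6 build, and each replicate's own list held 30000 peaks and background regions. Read depth is unknown, because the lists give no read counts. Peaks are given by their signal rank, where rank 1 is the strongest peak of a list. A gene is called bound when an optimal summit, the highest point of a peak, lay within 1 kb of one of its transcription start sites (TSSs). A gene has a gene-body summit when 1 lay in the gene or within 2 kb of either end. A peak is called present in a replicate when it overlapped by at least 1 bp one of that replicate's 3866 strongest peaks. With 1 group there was no contrast to test: counts are set beside the same counts over all genes, and errors are the spread over replicates or exact binomial intervals, which cover counting error only.

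Polycomb group proteins keep developmental genes such as the Hox genes silent through cell divisions. Polycomb repressive complex PRC2 methylates histone H3, and PRC1 binds the methylated chromatin and ubiquitylates histone H2A. DNA-binding proteins such as Pleiohomeotic recruit both complexes to Polycomb response elements. Trithorax group proteins, among them histone methyltransferases and the Brahma nucleosome remodeler, act in the opposite direction and keep genes active.

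The sequences that carry the strongest peaks of these loci come first. They were read from the RefSeq Release 6 genome, which is the assembly of dm6, on the plus strand from 5′ to 3′, 100 bases to each side of the summit. Capitals mark matches, on either strand, to any of the motifs TAATTA (a homeodomain core), ACACTG (part of a core promoter element), GAGAGA (bound by GAGA factor), GCCAT (the core of Pleiohomeotic sites), TATCGATA (bound by DREF), CGATAG (a 6-mer common at the peaks of this list), CAGGTA (bound by Zelda) and CACGTG (an E-box). The first window is the strongest peak of the whole list, just past the 3′ end of *ash1* and 97 bp upstream of the neighbouring gene *CG14100*, at chr3L:19590521-19590721. The next is the strongest intronic peak of *osa* (rank 30), at chr3R:17704302-17704502, where a long noncoding RNA is annotated on the other strand. The *Trl* window (rank 36) is intronic, at chr3L:14759420-14759620. The *brm* window (rank 240) is a promoter at chr3L:15982899-15983099, and the *trx* window (rank 370) is intronic, at chr3R:14283810-14284010.
ash1 and CG14100: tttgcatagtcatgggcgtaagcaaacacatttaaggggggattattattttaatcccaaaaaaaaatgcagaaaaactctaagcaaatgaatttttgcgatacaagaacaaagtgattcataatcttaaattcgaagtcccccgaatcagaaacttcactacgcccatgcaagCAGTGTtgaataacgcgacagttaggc
osa: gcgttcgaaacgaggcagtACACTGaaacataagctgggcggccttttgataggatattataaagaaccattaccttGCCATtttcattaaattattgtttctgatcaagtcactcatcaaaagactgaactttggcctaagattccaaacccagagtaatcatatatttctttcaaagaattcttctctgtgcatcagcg
Trl: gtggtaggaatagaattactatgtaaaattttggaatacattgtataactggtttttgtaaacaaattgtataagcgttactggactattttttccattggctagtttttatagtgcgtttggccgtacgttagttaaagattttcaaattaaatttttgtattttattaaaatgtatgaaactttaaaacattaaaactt
brm: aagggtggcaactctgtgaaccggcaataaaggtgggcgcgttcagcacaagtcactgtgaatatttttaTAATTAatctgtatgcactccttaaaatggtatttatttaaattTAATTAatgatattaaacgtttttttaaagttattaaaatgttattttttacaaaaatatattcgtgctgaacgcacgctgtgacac
trx: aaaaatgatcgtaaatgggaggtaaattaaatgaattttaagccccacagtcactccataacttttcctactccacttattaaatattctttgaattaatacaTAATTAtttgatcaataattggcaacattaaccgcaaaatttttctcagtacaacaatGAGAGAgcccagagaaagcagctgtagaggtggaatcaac
The *brm* window held TAATTA at 2 places and the *trx* window held it once, whereas the windows beside *ash1* and in *osa* and *Trl* held none. The *Trl* window had no match to any of the 8 motifs and a GC content of 25.4%.

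The *ph* locus is a tandem duplication, and its sequence shows where the strongest peak of a Polycomb group gene lay. *ph-p* (FBgn0004861) and *ph-d* (FBgn0004860) are neighbours on X and encode closely related Polyhomeotic subunits of PRC1. The summit of the *ph-p* peak of rank 8, at position 2137332, fell between 2 stretches that match sequence upstream of *ph-d*. The longer stretch, chrX:2137132-2137264, aligned over 137 columns to chrX:2123566-2123696 with 88.3% identity and 16 differing columns. Their sequences follow, with the differing bases in capitals, including bases that face a gap.
ph-p stretch: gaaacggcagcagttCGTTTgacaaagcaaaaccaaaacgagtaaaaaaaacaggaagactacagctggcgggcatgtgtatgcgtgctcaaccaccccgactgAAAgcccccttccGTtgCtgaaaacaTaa
ph-d copy: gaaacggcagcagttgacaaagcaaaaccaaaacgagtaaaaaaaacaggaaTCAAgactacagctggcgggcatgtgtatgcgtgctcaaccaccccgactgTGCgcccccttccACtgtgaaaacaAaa
The other stretch, chrX:2137473-2137515, aligned over 45 columns at 91.1% identity to chrX:2123712-2123756. Between its 2 stretches *ph-p* had 208 bases (chrX:2137265-2137472), while the *ph-d* copies were 15 bases apart. The 208 bases had 0 other matches on the arms at an e-value of 1e-05 in blastn. They follow with the summit base, position 68, in capitals.
ph-p between the stretches: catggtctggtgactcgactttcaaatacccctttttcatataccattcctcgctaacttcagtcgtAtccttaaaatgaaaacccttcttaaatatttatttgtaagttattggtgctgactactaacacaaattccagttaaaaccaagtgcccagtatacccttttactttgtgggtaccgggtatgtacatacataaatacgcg
No peak of the optimal list, the joint list or any replicate list overlapped either *ph-d* copy, although the lists reach down to background regions. The *ph-p* peak itself ranked 7, 7 and 8 in replicates 1, 2 and 3. How reads that match both copies were treated is not given in the sources used here.

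Of the 38 genes, 16 were bound (42.1%, 95% interval 26.3 to 59.2), against 22.2% of all protein-coding genes. A gene-body summit was found at 29 (76.3%, interval 59.8 to 88.6), against 33.7% of all genes. In the replicates' own lists of 3866 peaks, 14, 16 and 17 of the 38 genes were bound, or 41.2% ± 4.02 (SD, n = 3). The same lists called 22.2% ± 0.155 of all genes bound, and the share of the gene set was the higher in each of the 3 lists. Each list scores the same genes, so these SDs give the spread of calling between replicates. They do not measure how the gap would vary with the choice of genes. For gene bodies the counts were 26, 28 and 29, or 72.8% ± 4.02, against 33.6% ± 0.175 of all genes. The members were chosen with earlier results of these data known, and whether the gap exceeds that of other gene sets was not tested.

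**Figure D1:**
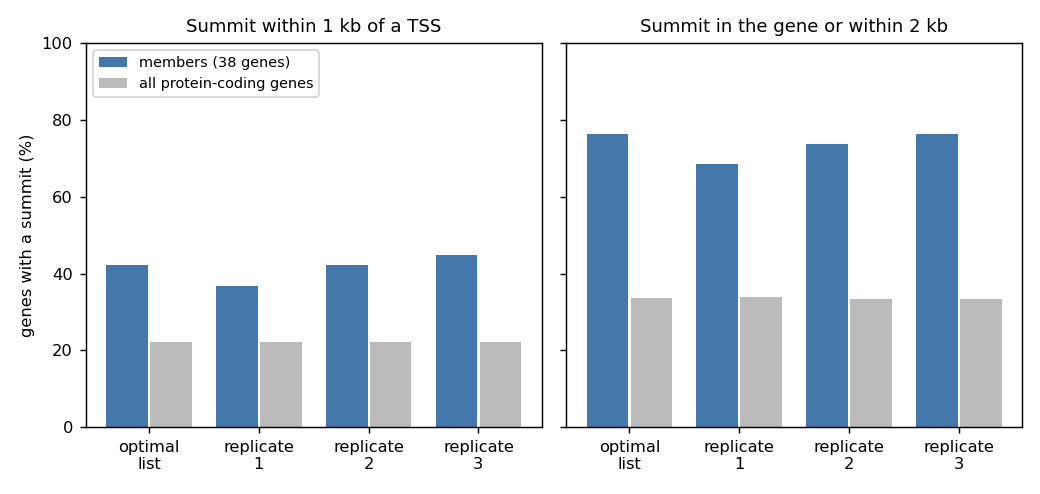
Percent of genes with a summit, by list: within 1 kb of a TSS (left) and in the gene or within 2 kb of it (right), for the 38 Polycomb and trithorax group genes (blue bars) and all protein-coding genes (grey bars), each bar 1 list with no error bar. In the 3 replicate lists the left blue bars are at 36.8%, 42.1% and 44.7%, above grey bars at 22.3%, 22.1% and 22.1%.

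These genes are long, and long genes catch more summits. Their median length was 7771.5 bp, against 2166 bp for all genes, and 22 of the 38 belonged to the longest of 5 equal groups of genes by length, from 6458 bp upward. In that group 9 of the 22 were bound (all genes of the group 32.3%) and 17 of the 22 had a gene-body summit (all genes 51.1%). In the next group, from 2839 to 6455 bp, 5 of 9 were bound (all genes 29.9%) and 8 of 9 had a gene-body summit (all genes 40.2%). Of the 6 genes in the middle group, 2 were bound (all genes 21.0%) and 4 had a gene-body summit (all genes 31.9%). The single gene of the next shorter group, *Sce*, had neither. In the longest group and the next one, genes of like length had higher shares than all genes together (22.2% bound, 33.7% with a gene-body summit). For the members of both groups the gap was thus smaller against genes of like length than against all genes. In the middle group the shares of like length, 21.0% and 31.9%, were slightly lower than those of all genes. The dependence of the gap on length was not tested.

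**Figure D2:**
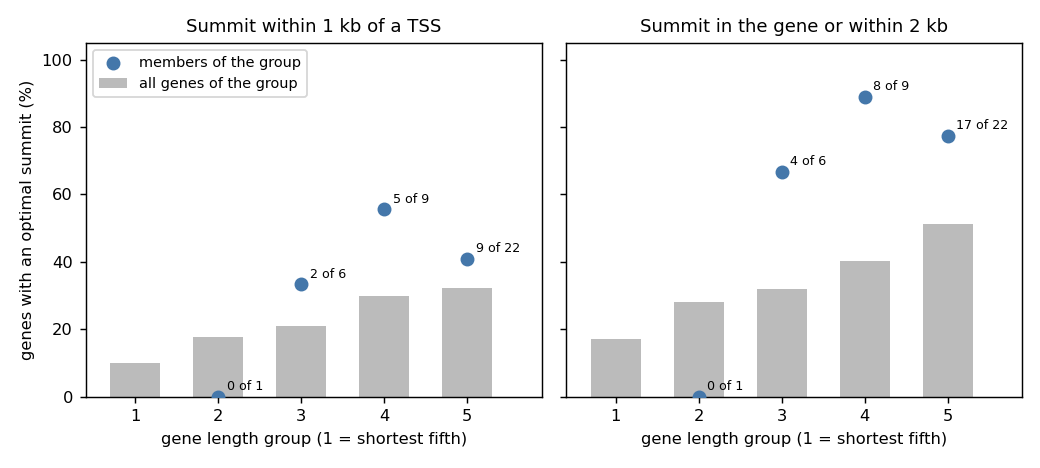
Percent of genes with an optimal summit in 5 groups of equal size by gene length (1 is the shortest), within 1 kb of a TSS (left) and in the gene or within 2 kb of it (right). Grey bars are all genes of the group and blue points the Polycomb and trithorax group genes in it, with their counts. In groups 3, 4 and 5 the blue points lie above the bars.

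Among the 16 bound genes, 11 had a peak present in all 3 replicates (28.9% of the 38, against 15.1% of all genes). As a share of bound genes this was 68.8%, close to the 68.0% of all bound genes. The bound summit was nearest to the gene's own TSS at 11 (also 28.9% of the 38, against 15.6% of all genes), or 68.8% of those bound, against 70.2% of all bound genes. For *Jarid2*, *calypso*, *mor*, *Acf* and *skd* each bound summit was nearer to the TSS of a neighbour, namely *Uch-L5*, *CG42837*, *Hel89B*, *Mccc1* and *Pdss2*. Of the 21 summits within 1 kb of a TSS of these genes, 14 had at least 1 further gene in reach, so a peak there cannot be given to a single gene. The strongest bound peaks had a median rank of 1394.5 (8 to 3805), against 1667 over all bound genes.

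**Figure D3:**
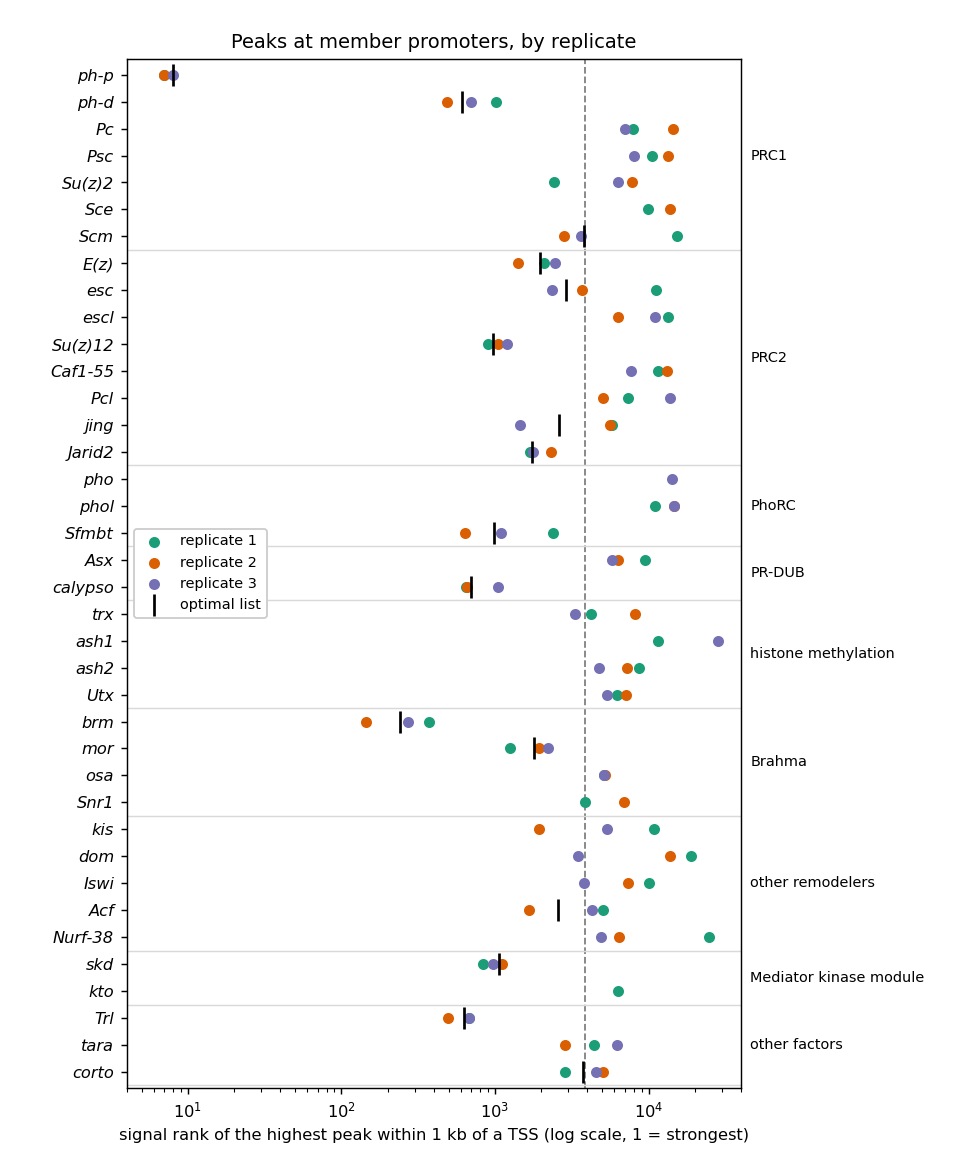
Signal rank (log scale, 1 is the strongest) of the highest peak with a summit within 1 kb of a TSS, for each of the 38 genes grouped by complex. Points are the lists of replicates 1, 2 and 3, black ticks the optimal list, and the dashed line marks rank 3866, its last peak. The points of *ph-p* stand alone at 7, 7 and 8, and those of *brm* follow at 372, 145 and 272.

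PRC1 genes differed widely: 3 of 7 were bound and 6 of 7 had a gene-body summit. *ph-p* had the strongest bound peak of all 38 genes. Besides the summit of rank 8, which lay 477 bp upstream of the nearest of its 3 annotated TSSs and within the annotated gene, *ph-p* had a summit of rank 171 at 414 bp downstream of a TSS, and intronic summits of ranks 894 and 1782. All 4 were present in all 3 replicates. The summit of rank 171 ranked 312, 140 and 131 in replicates 1, 2 and 3. Its sequence also matched *ph-d* (82.4% identity over 204 columns), where of the replicates 1 alone had a peak, replicate 1 at rank 12389. *ph-d* had its own intergenic summit of rank 608 at 768 bp upstream of the TSS. It ranked 1017, 488 and 702 in replicates 1, 2 and 3, so every replicate placed *ph-d* below *ph-p*. Sequence beside the *ph-d* summit, chrX:2123866-2124052, aligned over 203 columns, at 71.4% identity, to chrX:2137654-2137855 in *ph-p*. The *ph-p* peak of rank 171 overlapped that copy in part. Both summits, at 2124054 in *ph-d* and 2137957 in *ph-p*, lay outside this alignment of 71.4% identity. The *ph-p* summit lay inside the match of 82.4% identity, chrX:2137954-2138157, which ends at the edge of the search window.

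*Scm*, whose product links PRC1 with other Polycomb complexes, was bound by a weak peak 33 bp upstream of its TSS. It ranked 3805 in the optimal list, just inside the last rank of 3866. The peak ranked 2831 in replicate 2 and 3616 in replicate 3, while the best promoter peak of replicate 1 ranked 15429. *Pc*, the chromodomain subunit that binds methylated histone H3, was not bound, and its best promoter peak ranked 7973, 14428 and 7043 in replicates 1, 2 and 3. A peak of rank 44 lay within 2 kb of its 3′ end, 84 bp downstream of the TSS of *CG11309*, and ranked 37, 50 and 43. *Psc* and *Su(z)2*, neighbouring paralogs on 2R that encode RING finger subunits, were not bound. *Psc* had an intronic summit 5093 bp downstream of the nearest TSS, of rank 451 (574, 438 and 451 in the replicates), whereas the only summit of *Su(z)2* lay past its 3′ end at rank 2760. *Sce*, the ubiquitin ligase of PRC1, had no summit by either rule, and its nearest optimal summit was 4778 bp from its TSS.

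Of the PRC2 genes 5 of 8 were bound and 7 of 8 had a gene-body summit. The strongest bound peaks of the core subunits *Su(z)12*, *E(z)* and *esc* ranked 967, 1969 and 2906, against a median of 1667 over all bound genes. *E(z)*, the methyltransferase, had a summit of rank 1969, 9 bp downstream of a TSS, and ranked 2086, 1406 and 2462 in replicates 1, 2 and 3. *Su(z)12* had summits of ranks 967 and 2420 on either side of its TSS, and both overlapped the same peak in each replicate, of ranks 895, 1050 and 1191. *esc*, a WD40 repeat subunit, had a summit of rank 2906, 18 bp upstream of its TSS. That peak ranked 11174 in replicate 1, 3696 in replicate 2 and 2364 in replicate 3, so replicate 1 did not share it. Its paralog *escl* was not bound, with promoter ranks of 13475, 6319 and 10942 and no gene-body summit.

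*Caf1-55*, the histone chaperone subunit shared with other complexes, was not bound, but the peak of rank 15 lay past its 3′ end and 117 bp upstream of *Art3*. The peak ranked 22, 16 and 13 in replicates 1, 2 and 3, while the promoter of *Caf1-55* itself ranked 11528, 13276 and 7701. Of the accessory subunits, *Jarid2* had a summit of rank 1730 (1701, 2322 and 1775), 4 bp upstream of *Uch-L5* and 69 bp upstream of its own TSS. *jing*, which spans 119787 bp on 2R, had 5 summits, and the bound one ranked 2624. It was present in replicate 3 alone, where it ranked 1453, against 5749 and 5643 in replicates 1 and 2. *Pcl* had 2 summits of ranks 730 and 2590 past its 3′ end, both nearest to *pAbp*, and none at its promoter.

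Of the PhoRC genes, the only complex of the Polycomb group with sequence-specific DNA binding, 1 of 3 was bound. *Sfmbt*, which encodes the MBT repeat partner, had summits of ranks 983 and 2882, 81 and 295 bp upstream of its nearest TSS. Both overlapped the same replicate peaks, of ranks 2376, 636 and 1099, and *CG5439* and *CG43925* were also in reach. *pho* lies on chromosome 4, and its nearest optimal summit was 149723 bp away. Replicate 3 alone had a peak at its promoter, of rank 14240. The paralog *phol* was not bound, but a peak of rank 34 (49, 54 and 28 in the replicates) lay 1521 bp upstream of it, 110 bp upstream of *CG3552*. Of the PR-DUB genes, which encode a deubiquitinase and its partner, *calypso* had a summit of rank 698, 532 bp upstream, with 3 other genes in reach. It ranked 651, 658 and 1044 in replicates 1, 2 and 3, while *Asx* had no summit by either rule.

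None of the 4 genes for histone methylation factors of the trithorax group was bound, while 3 of the 4 had a gene-body summit. *trx*, a histone methyltransferase gene, had 4 summits, the strongest of rank 370 in an intron 2993 bp downstream of its TSS. This peak ranked 524, 355 and 352 in replicates 1, 2 and 3, whereas the promoter ranked 4218, 8209 and 3340. Another *trx* summit, of rank 1382, lay at the promoter of *red*. The strongest peak of the whole list lay past the 3′ end of *ash1*, another methyltransferase gene, 8134 bp from its TSS, and ranked 4, 1 and 1. The promoter of *ash1* ranked 11594 in replicate 1 and 28501 in replicate 3, and replicate 2 had no peak there. *ash2*, which encodes a subunit of methyltransferase complexes, had a summit past its 3′ end at the promoter of *CG6695* (rank 1538), and *Utx*, a histone demethylase gene, had none.

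All 4 genes of the Brahma remodeler had a gene-body summit, and 2 were bound. *brm*, which encodes the ATPase, had a summit of rank 240, 130 bp upstream of its TSS and with *Arl1* also in reach. It ranked 372, 145 and 272 in replicates 1, 2 and 3. *mor* had a summit of rank 1801, 231 bp upstream, which ranked 1247, 1937 and 2199. *osa*, the subunit that defines the BAP form of the complex, had its strongest peak (rank 30) in an intron 13948 bp downstream of its TSS. The *osa* peak ranked 26, 29 and 31 in replicates 1, 2 and 3, while the *osa* promoter ranked 5116, 5202 and 5152, so all 3 replicates placed the intron far above the promoter. A further *osa* intron summit ranked 449. The only *Snr1* summit lay past its 3′ end, at the promoter of *CG45100*.

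Among the other remodelers 1 of 5 was bound and 2 of 5 had a gene-body summit. *kis*, a CHD family remodeler gene, had intronic summits of ranks 377 and 1465, of which the first ranked 323, 322 and 497 in replicates 1, 2 and 3. The first lay 1593 bp upstream of the nearest *kis* TSS, outside the 1 kb window. At *kis* promoters the best peak ranked 10882, 1945 and 5348, and 3990 in the joint list, the closest rank past the last optimal peak among the unbound genes. *Acf* was bound by a peak of rank 2574, present in replicate 2 alone, where it ranked 1668, against 5077 and 4334. *dom*, *Iswi* and *Nurf-38*, which encode 2 ATPases and a NURF subunit, had no summit by either rule.

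Of the Mediator kinase module genes, *skd* had 4 summits and *kto* none. The bound *skd* peak (rank 1059; 840, 1117 and 969 in the replicates) lay 20 bp upstream of *Pdss2* and 461 bp upstream of *skd*. Its 3 intronic summits ranked 2685 to 3766 and none was present in all 3 replicates. *kto* had a promoter peak in replicate 1 alone, of rank 6368, and its nearest optimal summit was 18512 bp from a TSS.

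The remaining factors held the loci richest in summits. *tara*, which encodes the trithorax group protein Taranis, had 10 summits, the most of the 38 genes, and 7 of 13945 genes (0.0502%) had 10 or more. With its flanks *tara* spans 38.7 kb, and that share was not matched for gene length. The replicate lists gave 9, 10 and 8 summits, or 9.0 ± 1.0 (SD, n = 3). The strongest, of rank 101, was intergenic and 1154 bp upstream of the TSS, with ranks of 94, 130 and 92. It lay just outside the 1 kb window, so *tara* is not counted as bound. *Trl*, which encodes GAGA factor, a DNA-binding protein of Polycomb response elements and promoters, had 5 summits in 13121 bp, all present in all 3 replicates. The strongest *Trl* peak, of rank 36, ranked 34, 35 and 41, and 624 was the rank of the strongest bound one, 139 bp downstream of a TSS (679, 497 and 679). *corto*, a chromodomain protein gene, was bound by a weak peak of rank 3756 in a coding exon with 66.2% GC, present in replicate 1 alone, at rank 2853 against 5027 and 4559.

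Some of these genes held several summits. Of the 38 genes, 6 (15.8%) had 4 or more gene-body summits, against 152 (1.09%) of all genes. The count was not matched for gene length, of which the median was 7771.5 bp here and 2166 bp over all genes. Per 10 kb of gene and flanks *Trl* had 2.92 summits, *tara* 2.58 and *ph-p* 2.47, while *trx* had 1.45, *skd* 1.04, *osa* 0.87 and *jing* 0.4. The window of *jing* was 123.8 kb long. No such density was computed over all genes. Over the replicate lists *Trl* had 5.67 ± 0.58 summits and *ph-p* 4.33 ± 0.58 (SD, n = 3), while *jing* had 3, 3 and 6.

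**Figure D4:**
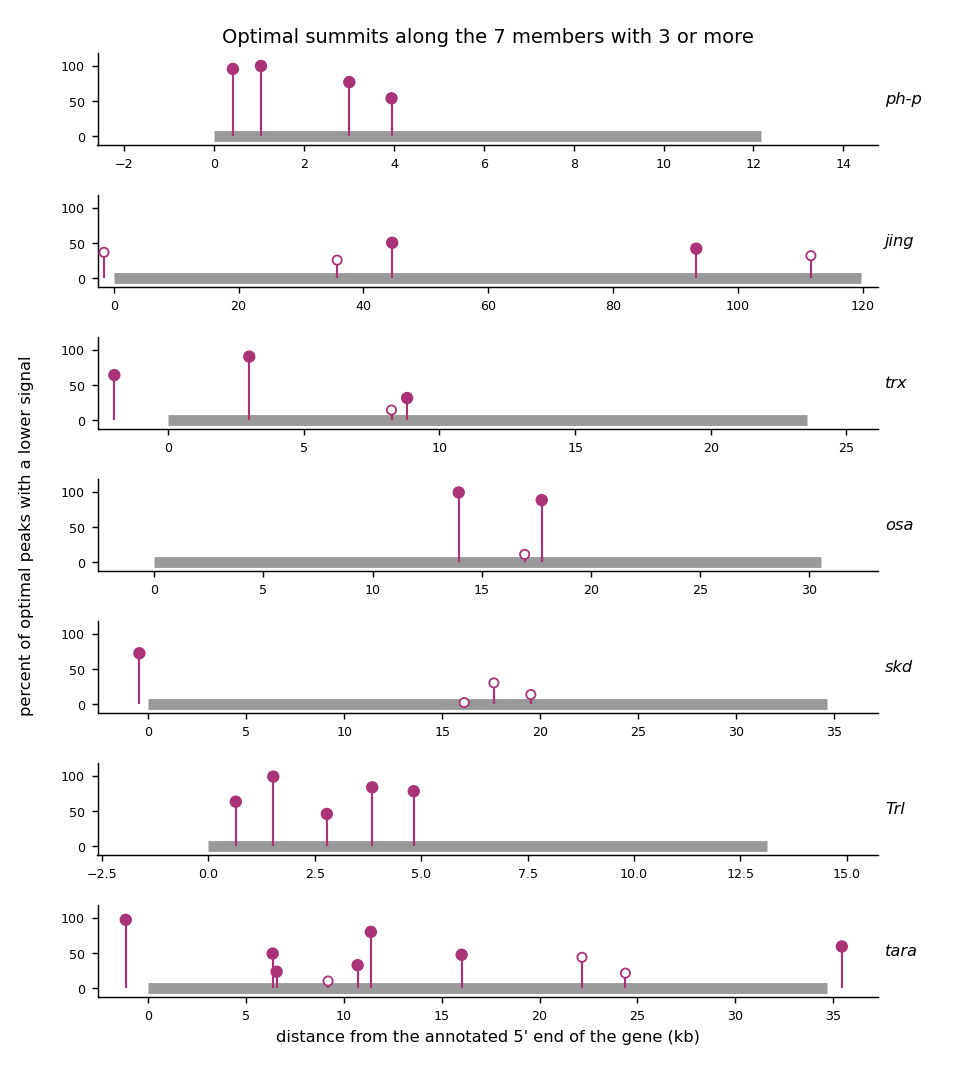
Optimal summits along the 7 genes with 3 or more, as distance in kb from the annotated 5′ end of the gene (grey bar), drawn in the direction of transcription. The height is the percent of optimal peaks with a lower signal, filled points are peaks present in all 3 replicates and open points are the others. All 4 points of *ph-p* and all 5 of *Trl* are filled and lie in the 5′ part of the gene, while the 10 of *tara* run from 1154 bp upstream of the gene to past its 3′ end.

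Many of the summits lay away from the promoters of the genes themselves. Of 65 summits in the 29 gene bodies with flanks, 40 were nearest to a TSS of the gene itself and 25 to a TSS of another gene. Of the 65, 38 lay inside the gene, 29 of them in introns, 17 upstream and 10 downstream, of which 9 were nearest to another gene. By class 30 of the 65 were intronic (46.2%, against 30% of all optimal peaks) and 28 lay within 500 bp of a TSS (43.1%, against 54.7%). The 65 were picked for lying in or near these long genes and all optimal peaks were not. The class shares of the 2 sets are therefore not like for like. A summit inside the gene was found at 14 of the 38 genes (36.8%), against 11.0% of all genes, which are mostly shorter. That comparison was not matched for gene length. Peaks present in all 3 replicates made up 72.3% of the 65, against 64.6% of all optimal peaks. Among the 50 strongest optimal peaks, 7 (14%) lay in these loci, which held 1.68% of all 3866 optimal peaks. They were those of *ash1*, *ph-p*, *Caf1-55*, *osa*, *phol*, *Trl* and *Pc*. Of the 7, 3 were nearest to the gene itself (*ph-p*, *osa* and *Trl*) and 4 to the promoter of a neighbour. Requiring that a gene-body summit be nearest to the gene's own TSS left 19 of the 38 genes (50%), against 18.4% of all genes, also not matched for length.

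At bound promoters the strongest summit lay upstream of the nearest TSS at 12 of 16 genes (75%), against 82.6% of all bound genes. The median position relative to the TSS, negative upstream, was -75 bp (-768 to 907), against -118 bp over all bound genes.

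**Figure D5:**
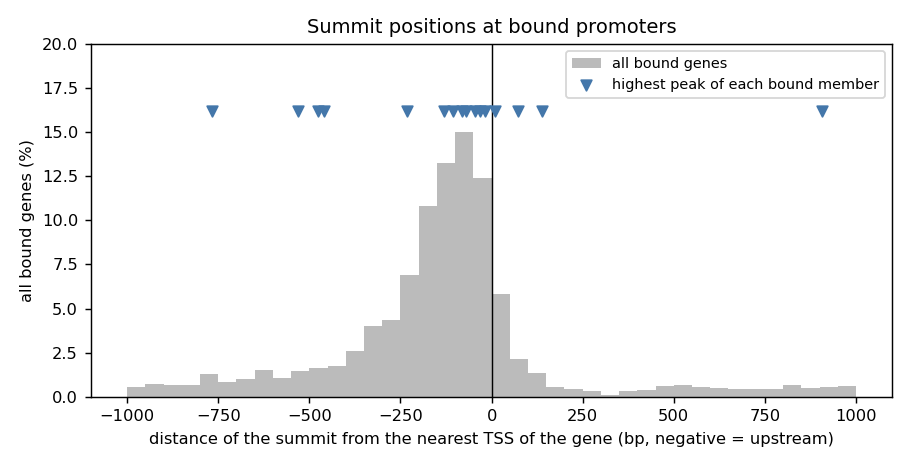
Distance in bp from the strongest bound summit of each gene to its nearest TSS, negative upstream. Grey bars are the percent of all 3098 bound genes per bin, and triangles, drawn at 1 height, mark the 16 bound Polycomb and trithorax group genes. Of the triangles, 12 lie left of 0, and that of *corto* stands apart at 907 bp.

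For each of the 8 motifs the share over all summits near TSSs fell within the counting interval of the share at the 21 summits near TSSs of these genes. Those intervals are wide and treat the 21 as independent, though some lie at the same gene. The 21 are also part of all summits near TSSs. Whether the shares are alike was not tested. TAATTA lay within 100 bp of 3 of the 21 summits near TSSs (14.3%, exact 95% interval 3.05 to 36.3), against 14.9% of all 2460 summits within 1 kb of a TSS. Over all 65 summits it was found at 8 (12.3%), against 15.1% of all 3866. GCCAT, the core of Pleiohomeotic sites, was found at 19 of the 65 (29.2%), against 27.7%. GAGAGA was at 9 of the 65 (13.8%), against 10.7%, but at 0 of the 21 near TSSs, for which the interval reaches 16.1% and the share over all such summits was 9.63%. With 200 bp to each side GAGAGA was at 3 of the 21 (14.3%), against 20.8%. ACACTG was at 6 of the 21 (28.6%, against 20.9%) and CGATAG at 2 (9.52%, interval 1.17 to 30.4, against 18.7%). TATCGATA was at 2 (9.52%, against 8.25%), CAGGTA at 1 (4.76%, against 3.17%) and CACGTG at 0 (against 2.72%). Of the 7 windows among the 50 strongest peaks, 5 held none of the 8 motifs. That share was not computed over all optimal peaks or over the other strongest peaks. The GC content of the 7 windows ran from 25.4% to 37.8%, against a median of 36.8% (quartiles 32.8% and 41.3%) over all optimal peaks. Every motif was searched on both strands, and CGATAG can overlap TATCGATA by 5 bases.

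The 22 genes without a bound peak were not all alike. In 7 of them the promoter held 1 of the 3866 strongest peaks of exactly 1 replicate, in 0 of them of 2 or 3 replicates, and 15 had none. In the joint list their best promoter peaks ranked from 3990 to 27318 with a median of 7571, *pho* having no such peak. The genes nearest the last optimal rank of 3866 were *kis* (3990) and *Su(z)2* (4057) outside it, and *Scm* (3805) and *corto* (3756) inside it. A gene-body summit was found at 13 of the 22, and *Sce*, *escl*, *pho*, *Asx*, *Utx*, *dom*, *Iswi*, *Nurf-38* and *kto* had none. Neither these counts nor the joint ranks were computed over all unbound genes, so no background share stands beside them.

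Across the 2 classes, 10 of 20 Polycomb group genes were bound (50%, interval 27.2 to 72.8) and 6 of 18 of the trithorax group and remodelers (33.3%, interval 13.3 to 59.0). Gene-body summits were found at 16 of 20 and 13 of 18. The intervals overlap, and the difference was not tested.

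Other Polycomb related genes and genes of chromatin complexes, coactivators and cohesin were counted for comparison. Of 58 such genes 22 were bound (37.9%) and 32 had a gene-body summit (55.2%), against 42.1% and 76.3% of the 38 genes. Over all protein-coding genes the shares were 22.2% and 33.7%. Further Polycomb related genes were bound at 8 of 13, led by *Dsp1* (rank 288), an HMG box protein gene, *lolal* (rank 988) and *Kdm2* (rank 1458). Of the COMPASS family of methyltransferase complexes 3 of 13 were bound, *Mnn1* (rank 1338), *Rbbp5* (rank 1601) and *Dpy-30L1* (rank 2892). Further Brahma complex genes were bound at 2 of 6 (*Bap60*, rank 731, and *Bap170*, rank 3337), and NURF, ACF and CHRAC genes at 2 of 4 (*tou*, rank 872, and *E(bx)*, rank 2806). NuRD genes were bound at 2 of 6 (*MEP-1*, rank 1004, and *MBD-like*, rank 1197), and Domino and Tip60 genes at 3 of 12 (*pont*, rank 1925, *MrgBP*, rank 1964, and *rept*, rank 3230). Of the coactivators and cohesin genes 2 of 4 were bound, *nej* (rank 330), which encodes the CBP acetyltransferase, and *fs(1)h* (rank 1101), a BET family gene.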

How the data were processed

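The lists are in the narrowPeak format. Per the notes deposited with the files, a control file and the alignments of 1 replicate (replicate lists) or of all 3 (joint list) went into peak calling by the authors, and the optimal list was derived from those lists. Neither aligner nor peak caller is named in the sources used here. The authors deposited the peak signal on an unstated scale, so only its order within a list was used. From the deposited −log10 q-values came the numbers of peaks with q-values under 0.01, which were 3527, 4276 and 4599 in replicates 1, 2 and 3. Summits were computed from the deposited offsets and are printed 1-based.

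Genes and TSSs came from Ensembl release 115. Counts, medians and exact binomial (Clopper-Pearson) 95% intervals were computed with pandas 2.3.3 and SciPy 1.17.1, and copies were searched with blastn 2.17.0 from 401-base windows. The counting steps were tested on simulated data. Biological replicates are separate samples per the labels. The dm3 lists were not used. The 38 genes, the other lists and the motifs were chosen with earlier results of these data known. All 38 genes are named, with up to 3 bound genes of each other list, and nearer neighbours. The comparison of the *ph* copies, the counts of several summits per gene and the look at the 50 strongest peaks were chosen after seeing the data.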

Additional observations from a re-analysis of the deposited data

How the results depend on the processing

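Of 66 alternatives, 12 moved a value beyond the range set for it: 1.5 times for a count, the SD of the replicates' medians (39.8) for the median rank, and the exact interval for a motif share, which is wide. By definition a wider window can only add genes or motif matches, and a narrower window or a shorter list can only remove them. Causes beyond this were not tested. With a 5 kb TSS window 27 genes were bound (71.1%, all genes 40.6%) and 19 of them had the strongest summit upstream. With nothing added to the gene body 14 genes had a summit (36.8%, all genes 11.0%, not matched for gene length). With only the optimal peaks above the median signal 10 genes were bound (26.3%, all genes 12.6%), 6 had their own TSS nearest and the median rank was 832.5. The median rank was 1969 in the joint list at q-values under 0.01, and 1247, 1261.5 and 1322 for the matching peaks of replicates 1, 2 and 3. ACACTG was at 9.52% of windows with 50 bp to each side, and GCCAT at 57.1% with 200 bp, against 11.1% and 49.0% of all summits near TSSs. Within the interval, TAATTA went from 14.3% to 33.3% with 200 bp (all such summits 25.7%). Leaving out each replicate in turn and requiring presence in both others gave 11 to 13 bound genes and 24 to 26 genes with a gene-body summit. Under this setting the genes bound and the genes with presence in the replicates kept are by definition the same count. No paired analysis was possible because there was 1 group. Without read counts, depth sets no limit that can be stated.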
